A study of Sus scrofa with 36 samples.

Results

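Solute carrier (SLC) genes encode the membrane proteins that move sugars, amino acids, metals, vitamins, ions and metabolites into, out of and within cells. Their levels were followed in the mammary gland of Yucatan mini-pigs given estrogen, progesterone, bromocriptine or haloperidol. Every probe set of a porcine Affymetrix array whose only gene symbol begins with SLC and a digit was taken, except SLC34A2, and the brightest probe set stood for each gene. This gave 109 genes of the 6360 genes with a symbol of their own on the array, from 154 of the 20792 probe sets. The symbols SLC2A4RG, SLC9A3R1 and SLC9A3R2 match the rule by name and are kept, although the first is known as a transcription factor and the others as scaffold proteins.

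The animals were peripubertal females of 5 months, with 4 in each of 9 groups and 1 array per animal. Groups HEP, HP, HE and H were ovariectomized and had bromocriptine for 8 days and then haloperidol for 5 days. HE also had estrogen, HP progesterone and HEP both during those 5 days. Groups BEP, BP, BE and B were ovariectomized too and stayed on bromocriptine for all 13 days, with the same letters for the added steroids. The sham group kept its ovaries and had saline. Bromocriptine is a dopamine agonist, which lowers pituitary prolactin release, and haloperidol is a dopamine antagonist, which raises it. Prolactin itself was not measured in the data used here. BrdU was given to the animals 24 hours before the end. No animal lacked bromocriptine among the ovariectomized groups, and sham differs from B in surgery and drug together, so these cannot be told apart.

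The mammary epithelium makes milk from blood nutrients, and much of that traffic runs through SLC proteins. Glucose enters by GLUT carriers and is built into lactose in the Golgi, amino acids enter for milk protein, and iodide, zinc, copper and vitamins are passed on to the milk. Mitochondrial carriers of the SLC25 family exchange nucleotides, citrate and amino acids across the inner mitochondrial membrane, while fatty acid and lactate carriers are prominent in fat and muscle, which the whole gland also holds.

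The deposited values are log2 RMA values, so a difference of 1 is a change by a factor of 2. Array medians lay between 7.83 and 7.91, and arrays have no read depth, so the number of animals limits the precision. The genes fell into 21 mitochondrial carriers, 16 amino acid, 9 hexose, 7 zinc, 5 other metal, 13 Golgi and endoplasmic reticulum, 2 monocarboxylate, 4 lipid and choline and 9 ion transporters, and 23 others. Mean levels of 24 genes lay below the lower quartile of each array (5.90 in the array where it was lowest). These are called dim here, and their fold sizes are uncertain. SLC group means spread more than those of genes at large: the median gap between the highest and the lowest group mean was 0.99 for the 109 SLC genes, beside 0.78 for all 6360 genes, and it passed 1 in 54 SLC genes (49.5%), beside 33.6% of all genes. HE had the highest mean of the 9 groups for 33 of the 109 (30.3%), beside 21.5% of all genes. These shares are descriptions with no test.

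Some values on other cells and on single animals bear on what follows. Each marker list was summed up per animal as the mean of its genes after centring each gene over the 36 arrays. The adipocyte score ran from -1.31 to -0.65 in HE, against -0.49 to 0.49 in BE, and 8 of the 11 adipocyte markers measured were lower with estrogen. Of 14 skeletal muscle markers, 10 were lower with estrogen. The muscle score reached 6.56 in B array A, where the other B arrays lay between -1.24 and -0.09. Other animals without estrogen also had high scores: 4.78 in H array C, 3.34 in BP array A, and 3.08 and 2.54 in HP arrays C and A. Some without estrogen were low, as in HP array D (-1.15). With estrogen the highest muscle score was -0.76, in HEP array C. B array A also had a luminal epithelial score of -1.33, where the other B arrays lay between 0.04 and 0.48. The luminal epithelial score was 0.16 to 0.69 in HE, against -0.53 to -0.02 in BE, with 4 of 13 markers higher and 1 lower with estrogen, and 3 higher and 0 lower with haloperidol. Of 10 endothelial markers, 6 were lower and 0 higher with estrogen (median -0.60). Over all genes 20.1% were higher and 18.6% lower with estrogen, and 5.86% and 2.36% with haloperidol. In whole gland, fewer cells of a type and less RNA per cell cannot be told apart, and the part these shifts play in the SLC results was not tested. BP array A stood apart from the other BP animals in many SLC genes, so results that it decides are also given without it. Its adipocyte score was -0.92, against 0.25 to 0.92 in the other BP animals.

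Estrogen moved about as large a share of the SLC genes as of all genes. With estrogen (HEP, HE, BEP and BE) against without it (HP, H, BP and B), 22 of 109 SLC genes were higher (20.2%) and 24 lower (22%) at an adjusted p under 0.05 (limma across all probe sets, Benjamini-Hochberg). Over all probe sets 17.5% were higher and 17.6% lower, and over the 6360 genes 20.1% and 18.6%. The median SLC difference was -0.01, beside 0.03 for all genes. Haloperidol (HEP, HP, HE and H) against bromocriptine (BEP, BP, BE and B) moved fewer genes, with 13 SLC genes higher (11.9%) and 5 lower (4.59%). Over all probe sets 3.85% were higher and 3.13% lower with haloperidol, and over all genes 5.86% and 2.36%. Without BP array A, 16 were higher and 10 lower, beside 8.38% and 4.73% of all genes. Of the 57 SLC genes called in either average, 7 were called in both, 5 of them in the same direction, and 52 genes were called in neither.

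**Figure D1:**
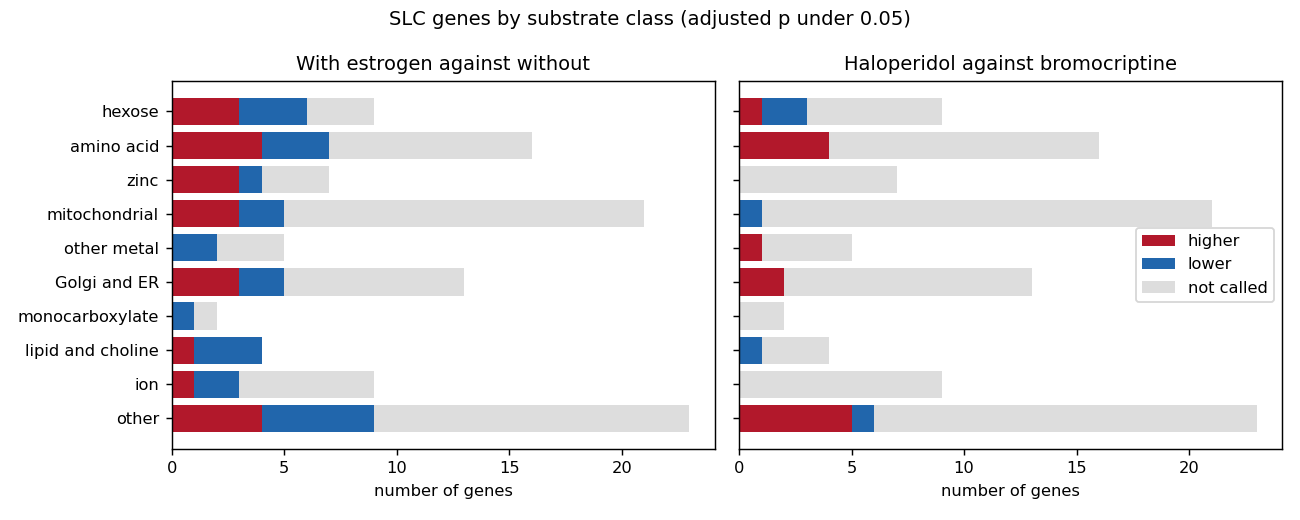
Number of SLC genes in each substrate class that were higher (red), lower (blue) or not called (grey) with estrogen against without (left) and with haloperidol against bromocriptine (right), in 16 against 16 animals. With estrogen 22 genes are higher and 24 lower over all classes, and with haloperidol 13 are higher and 5 lower.

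Of the 9 hexose carriers, 3 were higher and 3 lower with estrogen, beside 20.1% and 18.6% of all genes, and the class median was -0.29. With haloperidol 1 was higher and 2 lower, beside 5.86% and 2.36% of all genes. SLC5A1 (SGLT1), the sodium-coupled glucose and galactose transporter, changed most of all SLC genes with estrogen. It ranged from 5.63 to 9.76 (median 8.09) in the 16 animals with estrogen, against 4.49 to 8.90 (median 5.80) in the 16 without. The highest value without estrogen was BP array A, and the ranges overlapped. The difference was 2.04 ± 0.32 (SE), 4.10-fold (limma, adjusted p = 1.38e-05), and 2.26 without BP array A. HE animals had 8.71, 8.24, 9.22 and 9.21 and H animals 5.64, 5.75, 6.33 and 6.20, and sham animals had 7.14, 6.08, 7.22 and 5.29. No HE value overlapped H or sham, and HE exceeded H by 2.86 ± 0.63 (adjusted p = 0.00214) and sham by 2.41 ± 0.63 (adjusted p = 0.0272), a call on sham lost when 1 of 4 arrays was left out (HE C, HE D, sham B or sham D).

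SLC2A8 (GLUT8), an intracellular hexose carrier, was higher with estrogen by 0.73 ± 0.11 (adjusted p = 1.46e-05) and lower with haloperidol by -0.37 ± 0.11 (adjusted p = 0.0432). HE animals had 7.69, 7.75, 7.72 and 8.08, all below the BE values, a difference of -0.72 ± 0.23 (adjusted p = 0.0393). The haloperidol call was lost in 20 of the 36 runs that left out 1 array, and the HE against BE call in 6. BE animals had 8.74, 8.69, 8.33 and 8.37, against 7.38, 7.37, 7.07 and 7.34 in B. All 4 BE values lay above all B values, and BE exceeded B by 1.25 ± 0.23 (adjusted p = 0.00108). It was the single SLC gene higher in BE against B, where SLC9A4 (NHE4, a sodium-proton exchanger, dim) was the single one lower, at -1.62 ± 0.42 (adjusted p = 0.0218), a call lost in a fit on those groups alone. Over all probe sets 2.88% were higher and 0.895% lower in BE against B. In BEP against BP, with every array kept, limma called 0 SLC genes (9 higher and 14 lower at an unadjusted p under 0.05). The called shares of probe sets there were 0.587% up and 0.197% down. Without BP array A, 7 SLC genes were higher and 7 lower, beside 6.16% and 5.52% of all genes. The count of 0 in BEP against BP thus depended on that 1 animal. Under haloperidol, HE against H called 19 higher (17.4%) and 14 lower (12.8%). Over all genes the shares were 13.4% and 9.83%, and over all probe sets 9.81% and 10.1%. HEP against HP called 7 higher (6.42%) and 11 lower (10.1%). There the shares were 9.81% and 8.33% of all genes, and 8.84% and 7.7% of probe sets.

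SLC2A5 (GLUT5), the fructose carrier, was among the genes lowest under haloperidol with estrogen. HE animals had 7.52, 6.43, 8.17 and 7.20, H animals 8.57, 9.76, 10.45 and 11.36, and BE animals 10.72, 9.06, 10.38 and 11.13. The 4 HE values lay below all H and BE values. HE fell below BE by a log2 difference of -2.99 ± 0.62 (7.96-fold, adjusted p = 0.00223), below H by -2.70 ± 0.62 (adjusted p = 0.0029) and below sham by -2.93 ± 0.62 (adjusted p = 0.00654), and the average with haloperidol was -1.45 ± 0.31 (adjusted p = 0.00393). BP array A, at 7.60, had a value in the HE range, against 11.02, 10.76 and 10.62 in the other BP animals. SLC2A12 (GLUT12) was lower with estrogen by -0.81 ± 0.19 (adjusted p = 0.00162) and had 5.72, 6.03, 6.37 and 6.08 in HE, against 6.89, 7.55, 8.17 and 7.93 in H, with no overlap.

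SLC50A1 (SWEET1), a sugar efflux carrier of the Golgi and plasma membrane, was higher with estrogen (0.53 ± 0.14, adjusted p = 0.00424) and with haloperidol (0.75 ± 0.14, adjusted p = 0.00101). HE animals had 10.53, 11.44, 10.93 and 11.56, against 9.34, 9.55, 9.76 and 9.47 in BE and 9.76, 9.86, 9.81 and 9.85 in sham. No HE value overlapped BE or sham. SLC2A1 (GLUT1), the main basolateral glucose carrier of milk-forming cells, was not called with estrogen (0.21 ± 0.11, adjusted p = 0.128) or haloperidol (0.29 ± 0.11, adjusted p = 0.0996). In HE it had 11.37, 11.52, 11.63 and 11.60, against 10.62, 10.59, 11.29 and 10.60 in BE, with no overlap, a difference of 0.76 ± 0.21 (adjusted p = 0.0205) that was lost when any of 5 arrays was left out. SLC2A3 (GLUT3) did not pass in either average (-0.29 ± 0.18 with estrogen, adjusted p = 0.209, and -0.17 ± 0.18 with haloperidol, adjusted p = 0.625), but was called lower in HE against H. HE animals had 7.56, 6.70, 8.17 and 7.86, against 8.06, 8.64, 8.54 and 9.05 in H, with overlap and means of 7.57 ± 0.64 in HE and 8.57 ± 0.41 in H (SD, n = 4; limma, adjusted p = 0.0429). Of 11 genes of lactose synthesis and glucose use measured, 1 was higher and 2 lower with estrogen, beside 20.1% and 18.6% of all genes. With haloperidol 2 were higher, beside 5.86%. LALBA (alpha-lactalbumin, the regulatory part of lactose synthase) was higher with haloperidol by 3.70 ± 0.96 (adjusted p = 0.0156).

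**Figure D2:**
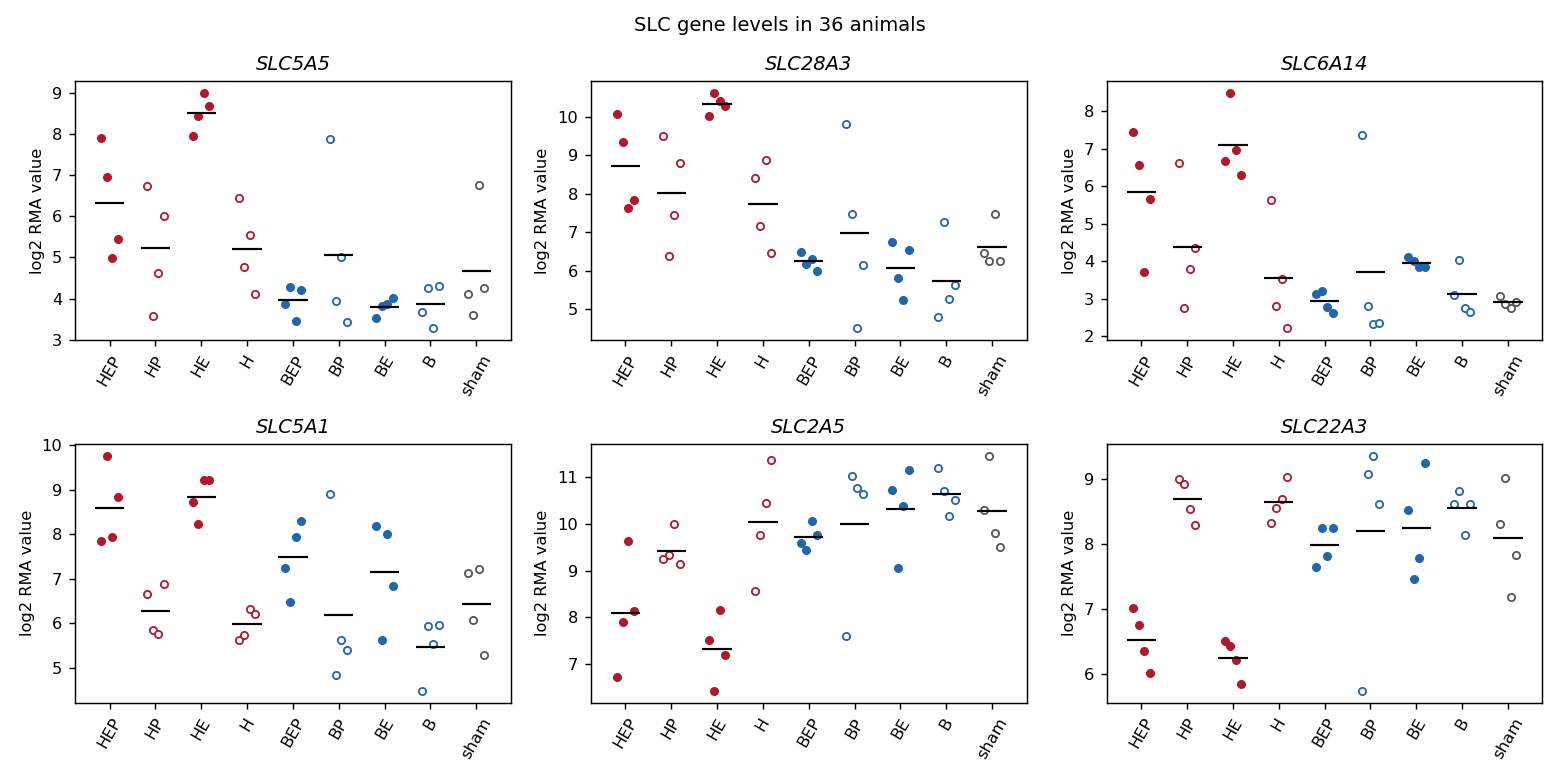
log2 RMA value of 6 SLC genes (vertical axis) in each of the 36 animals, by treatment group (horizontal axis). Points are animals, black bars are group means (n = 4), red marks haloperidol, blue bromocriptine and grey sham, and filled points had estrogen. All 4 HE animals lie above BE in SLC5A5, SLC28A3 and SLC6A14 and below it in SLC2A5 and SLC22A3, and 1 BP animal (array A) lies apart from its group.

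Of the 16 amino acid carriers, limma called 4 higher and 0 lower with haloperidol (0 lower at an unadjusted p under 0.05), with a class median of 0.04. Over all genes 5.86% were higher and 2.36% lower, so 0 lower calls among 16 genes is no result about the class. SLC6A14 (ATB0,+) takes up neutral and cationic amino acids and is dim here. HE animals had 6.68, 8.50, 6.96 and 6.30, H animals 5.64, 2.82, 3.53 and 2.22, BE animals 4.12, 4.01, 3.86 and 3.85 and sham animals 3.07, 2.87, 2.76 and 2.93. HE overlapped none of these groups, and HE exceeded BE by 3.15 ± 0.85 (8.87-fold, adjusted p = 0.0156; not called without HE array B) and sham by 4.20 ± 0.85 (adjusted p = 0.00496). Another probe set of SLC6A14 was called the same way in both averages. BP array A had 7.36, against 2.34 to 2.82 in the other BP animals.

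SLC1A1 (EAAT3), a glutamate and aspartate carrier, was higher with haloperidol by 0.86 ± 0.18 (adjusted p = 0.00288). HE animals had 9.24, 9.86, 9.13 and 8.90, against 7.39, 7.47, 7.75 and 7.39 in BE, with no overlap and a difference of 1.78 ± 0.36 (adjusted p = 0.0016). Its 3 other probe sets, all dim, gave 0.50, 0.45 and 0.77 with haloperidol and were not called. SLC1A2 (EAAT2), of the same family and dim, was higher with haloperidol by 0.90 ± 0.27 (adjusted p = 0.0391), a call lost in 19 of 36 runs that left out 1 array, and higher in HE against BE by 2.09 ± 0.54 (adjusted p = 0.0124). SLC7A1 (CAT1), the arginine and lysine carrier, was higher with haloperidol by 0.48 ± 0.10 (adjusted p = 0.00395). In B it had 8.90, 9.75, 9.65 and 10.11, against 10.22, 10.58, 10.18 and 10.35 in sham. The B values lay below all sham values, and SLC7A1 was the single SLC gene lower in B against sham (-0.73 ± 0.21, adjusted p = 0.0401). It lost that call in a fit on those groups alone and without any of 6 arrays. SLC46A3, a lysosomal carrier and dim, was the single gene higher there (1.30 ± 0.35, adjusted p = 0.0267), also lost in that fit, and it was lower with haloperidol by -0.59 ± 0.17 (adjusted p = 0.0334), a call lost in 11 of 36 runs without 1 array. Over all probe sets 1.56% were higher and 2.62% lower in B against sham.

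With estrogen 4 of the 16 amino acid genes were higher and 3 lower, beside 20.1% and 18.6% of all genes. SLC1A6 (EAAT4, dim) rose by 0.56 ± 0.16 (adjusted p = 0.00562), and SLC3A2, the heavy chain that pairs with exchangers of the SLC7 family, rose by 0.39 ± 0.15 (adjusted p = 0.0355), a call lost in 11 of the 36 runs without 1 array. SLC36A2, a proton-coupled carrier of glycine and proline and dim, fell by a log2 difference of -1.43 ± 0.37 (adjusted p = 0.0037), and SLC1A5 (ASCT2), a glutamine carrier, fell by -0.35 ± 0.11 (adjusted p = 0.0149). HE had SLC36A2 values of 3.83, 3.98, 4.37 and 3.88, against 7.27, 5.46, 6.23 and 6.18 in H, with no overlap. SLC7A7, a light chain of cationic amino acid exchange, was lower by -0.46 ± 0.18 (adjusted p = 0.0434), a call lost in 19 of those runs. Of 9 genes of the amino acid response and serine synthesis, 3 were higher and 1 lower with estrogen, and 2 were higher and 1 lower with haloperidol. PHGDH, the first enzyme of serine synthesis, was higher in both averages, by 1.08 ± 0.13 with estrogen (adjusted p = 1.9e-07) and 0.47 ± 0.13 with haloperidol (adjusted p = 0.0251).

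Of the 7 zinc carriers, 3 were higher and 1 lower with estrogen, beside 20.1% and 18.6% of all genes, with a class median of 0.33. With haloperidol limma called 0 of 7 (1 higher and 0 lower at an unadjusted p under 0.05), beside 5.86% and 2.36% of all genes called higher and lower, and the class median was 0.18. At those shares 0 calls among 7 genes is no result about the class. SLC39A7 (ZIP7), which releases zinc from the endoplasmic reticulum, ranged from 9.53 to 10.70 (median 9.91) with estrogen, against 8.56 to 10.14 (median 9.20) without. The ranges overlapped in part, with 4 of the 16 estrogen animals above all others, and the difference was 0.75 ± 0.14 (adjusted p = 0.000154). SLC39A7 exceeded sham in HE by 1.08 ± 0.28 (adjusted p = 0.0256), a call lost without any of 5 arrays. SLC30A5 (ZnT5), which loads zinc into the secretory pathway, was higher by 0.41 ± 0.16 (adjusted p = 0.0455) and SLC39A14 (ZIP14), a zinc and iron importer, by 0.33 ± 0.13 (adjusted p = 0.0449), and these calls were lost in 23 and 20 of the 36 runs without 1 array and on the mean of their probe sets. SLC39A5 (ZIP5) was lower with estrogen by -0.49 ± 0.13 (adjusted p = 0.00344). Whether the class responded differently to estrogen and to haloperidol was not tested.

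Other metal carriers gave 2 lower and 0 higher calls of 5 with estrogen (0 higher at an unadjusted p under 0.05 by limma), beside 18.6% of all genes lower and 20.1% higher. SLC31A2 (CTR2), a copper carrier of internal membranes, ranged from 7.76 to 9.01 (median 8.56) with estrogen, against 8.10 to 10.40 (median 9.79) without. The lowest value without estrogen was BP array A, and the difference was -1.11 ± 0.17 (2.17-fold, adjusted p = 9.01e-06). Its other probe set, dim, gave -0.34 and was not called (adjusted p = 0.118). SLC41A1, a magnesium carrier, was lower with estrogen by -0.39 ± 0.13 (adjusted p = 0.021), a call lost on the mean of its probe sets, and was higher in HE against BE by 0.98 ± 0.26 (adjusted p = 0.014). SLC31A1 (CTR1), the plasma membrane copper importer, named after its values were seen, was higher in HE against BE by 0.84 ± 0.21 (adjusted p = 0.0101). SLC11A2 (DMT1), an iron importer, was higher with haloperidol by 0.41 ± 0.12 (adjusted p = 0.0414), a call lost in 18 of the 36 runs without 1 array. Its 2 other probe sets, neither dim, gave 0.54 and 0.53 with haloperidol and were not called (adjusted p = 0.0826 and 0.134). With estrogen those were called higher, by 0.60 and 0.76 (adjusted p = 0.0138 and 0.00661), where the brightest gave -0.13 (adjusted p = 0.428), so the probe sets of SLC11A2 disagree. Of 6 genes of metal storage and handling measured, 2 were higher and 1 lower with estrogen, beside 20.1% and 18.6% of all genes. With haloperidol 1 was higher, beside 5.86%. Metallothionein MT1A rose with estrogen by 1.47 ± 0.24 (adjusted p = 2.79e-05), and LTF, the iron-binding milk protein lactoferrin, rose with estrogen by 1.03 ± 0.29 (adjusted p = 0.00622) and with haloperidol by 1.70 ± 0.29 (adjusted p = 0.000377).

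Of the 21 mitochondrial carriers, 3 were higher and 2 lower with estrogen (median -0.03), beside 20.1% and 18.6% of all genes, and 1 was lower with haloperidol (median -0.06), beside 2.36%. The adenine nucleotide carriers, which exchange ADP and ATP, changed in opposite directions with estrogen. SLC25A5 (ANT2), the isoform of dividing cells, ranged from 11.03 to 11.94 (median 11.58) with estrogen, against 9.79 to 11.79 (median 10.73) without, a difference of 0.90 ± 0.15 (adjusted p = 2.66e-05). SLC25A6 (ANT3) was higher by 0.33 ± 0.07 (adjusted p = 0.000896), with 14 of the 16 estrogen animals above all 16 others. SLC25A4 (ANT1), the isoform of heart and skeletal muscle, was lower by -0.69 ± 0.15 (adjusted p = 0.000799), with 11 of 16 estrogen animals below all others. Its highest value, 12.22, was in B array A, the animal with the highest muscle score, and without that array and BP array A its call remained. That fit keeps other animals without estrogen that had high muscle scores (4.78 in H array C, 3.08 in HP array C). The part of muscle in the SLC25A4 difference was therefore not tested. In HE, SLC25A5 had 11.83, 11.80, 11.75 and 11.88, against 10.78, 10.69, 9.91 and 10.33 in H, with no overlap.

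SLC25A1, the citrate carrier that supplies carbon for fatty acid synthesis, was the mitochondrial gene lower with haloperidol. It ranged from 8.83 to 10.10 (median 9.42) with haloperidol, against 9.16 to 11.22 (median 10.21) with bromocriptine, a difference of -0.68 ± 0.16 (adjusted p = 0.00705). Of 9 other genes of citrate and fatty acid synthesis measured, 4 were lower with haloperidol (median -0.25), beside 2.36% of all genes. They were ME1 (malic enzyme, -1.65 ± 0.24, adjusted p = 3.35e-05), ELOVL6 (a fatty acid elongase, -1.44 ± 0.21, adjusted p = 4.31e-05), FASN (fatty acid synthase, -1.24 ± 0.24, adjusted p = 0.00118) and SCD (a desaturase, -0.51 ± 0.09, adjusted p = 0.000611). SLC25A20, the carnitine and acylcarnitine carrier, did not pass in either average (-0.09 ± 0.13 with estrogen, adjusted p = 0.633, and 0.15 ± 0.13 with haloperidol, adjusted p = 0.527). SLC25A39, a mitochondrial glutathione carrier, was higher with estrogen by 0.37 ± 0.11 (adjusted p = 0.00759), and SLC25A48 was lower by -0.71 ± 0.23 (adjusted p = 0.0159). SLC25A21, which carries oxodicarboxylates, had 8.47, 8.02, 8.37 and 8.27 in HE, against 9.82, 9.99, 8.87 and 10.16 in BE, with no overlap and a difference of -1.43 ± 0.33 (adjusted p = 0.00561).

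**Figure D3:**
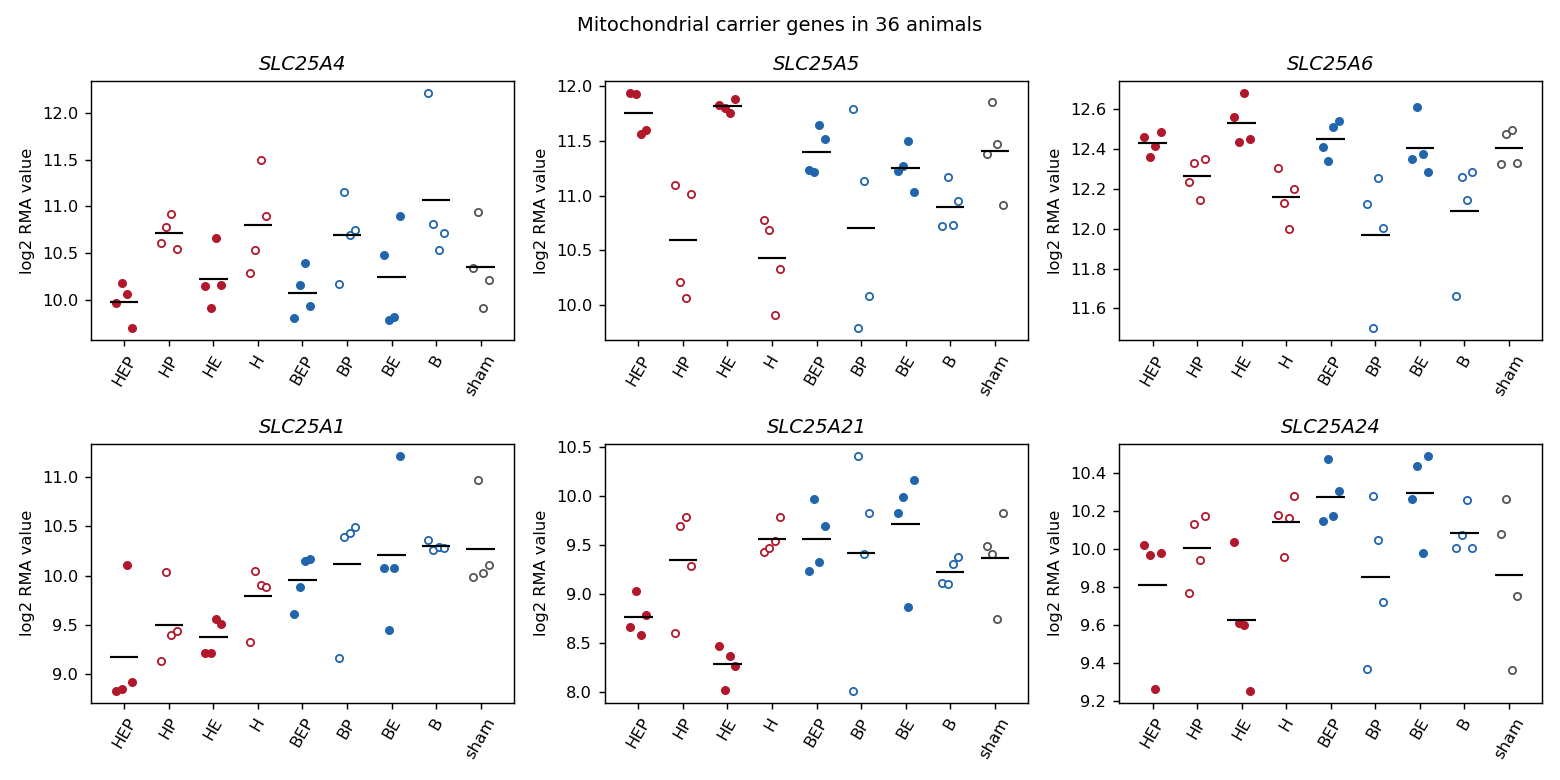
log2 RMA value of 6 mitochondrial carrier genes (vertical axis) in each of the 36 animals, by group (horizontal axis). Points are animals, black bars group means (n = 4), red haloperidol, blue bromocriptine, grey sham, and filled points had estrogen. SLC25A5 is higher and SLC25A4 lower with estrogen, and the highest SLC25A4 value, 12.22, is 1 B animal.

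Golgi and endoplasmic reticulum carriers gave 3 higher and 2 lower calls of 13 with estrogen, beside 20.1% and 18.6% of all genes, and 2 higher with haloperidol, beside 5.86%. SLC35B2 brings the sulfate donor PAPS into the Golgi. HE animals had 9.84, 10.63, 10.50 and 10.86, H animals 8.71, 8.54, 8.48 and 8.19, BE animals 8.52, 8.51, 8.63 and 8.10 and sham animals 8.72, 8.59, 9.32 and 8.38. HE overlapped none of them, and exceeded BE by 2.02 ± 0.35 (4.05-fold, adjusted p = 0.000464), H by 1.97 ± 0.35 (adjusted p = 0.000329) and sham by 1.70 ± 0.35 (adjusted p = 0.00566). SLC35B1, the ATP and ADP exchanger of the endoplasmic reticulum, rose with estrogen by 0.64 ± 0.14 (adjusted p = 0.000679), and SLC37A1, a phosphate-linked glucose 6-phosphate exchanger, rose with haloperidol by 0.50 ± 0.14 (adjusted p = 0.0304), a call lost in 7 of the 36 runs without 1 array. SLC35D2, a nucleotide sugar carrier, fell with estrogen by -0.68 ± 0.14 (adjusted p = 0.000505), and SLC35A4 by -0.38 ± 0.12 (adjusted p = 0.0154).

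Of the 4 lipid and choline genes, 1 was higher and 3 lower with estrogen, and of the 2 monocarboxylate genes 1 was lower, beside 20.1% of all genes higher and 18.6% lower. The adipocyte and muscle markers were lower in the same comparison. SLC27A6 and SLC27A1 (FATP1), carriers of fatty acids, fell by -0.78 ± 0.19 (adjusted p = 0.00224) and -0.60 ± 0.17 (adjusted p = 0.00735). The other probe sets of SLC27A6, both dim, gave 0.04 (limma, adjusted p = 0.866) and -0.93 (adjusted p = 0.0246), so they disagree. SLC44A2, a choline carrier, was lower by -0.33 ± 0.13 (adjusted p = 0.0425), but its 2 other probe sets gave 0.21 and 0.38, neither called, and the mean of its probe sets gave 0.09 (adjusted p = 0.546). SLC16A3 (MCT4), a lactate exporter of muscle and fat and dim, fell by -0.87 ± 0.21 (adjusted p = 0.00234). SLC44A4, a choline-like and thiamine pyrophosphate carrier of epithelia, went the other way, higher with estrogen by 0.68 ± 0.15 (adjusted p = 0.00075) and lower with haloperidol by -0.71 ± 0.15 (adjusted p = 0.0031). Among ion carriers 1 of 9 was higher and 2 lower with estrogen, beside 20.1% and 18.6% of all genes. SLC26A6, a chloride, oxalate and bicarbonate exchanger, rose by 0.74 ± 0.14 (adjusted p = 0.000126). SLC26A11, an anion and sulfate carrier, fell by -0.97 ± 0.17 (adjusted p = 5.13e-05), and 7 of the 16 estrogen animals lay below all others. Its other probe set, dim, gave 0.08 and was not called (adjusted p = 0.783).

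The remaining class held the genes that differed most under haloperidol. SLC28A3 (CNT3) carries nucleosides into cells with sodium, and SLC5A5 (NIS) brings iodide into thyroid and lactating mammary cells. SLC28A3 ranged from 6.39 to 10.62 (median 8.83) with haloperidol, against 4.51 to 9.82 (median 6.16) with bromocriptine, a difference of 2.43 ± 0.38 (5.41-fold, adjusted p = 0.000105). SLC5A5, dim, ranged from 3.58 to 9.00 (median 6.23) with haloperidol, against 3.27 to 7.89 (median 3.91) with bromocriptine, a difference of 2.15 ± 0.37 (4.44-fold, adjusted p = 0.000474). The highest bromocriptine value of each was BP array A, and the ranges overlapped. HE animals had SLC5A5 values of 7.95, 8.44, 9.00 and 8.69, H animals 6.43, 4.76, 5.55 and 4.11, BE animals 3.52, 3.82, 3.86 and 4.01 and sham animals 4.11, 3.59, 6.77 and 4.24. They had SLC28A3 values of 10.01, 10.62, 10.40 and 10.27, against 8.41, 7.17, 8.88 and 6.45 in H, 6.74, 5.81, 5.25 and 6.53 in BE and 6.47, 6.26, 7.46 and 6.24 in sham. HE overlapped none of the 3 groups in either gene.

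HE exceeded BE in SLC5A5 by 4.71 ± 0.75 (26.3-fold, adjusted p = 0.000146) and in SLC28A3 by 4.24 ± 0.75 (18.9-fold, adjusted p = 0.000506). Against sham the differences were 3.84 ± 0.75 (adjusted p = 0.00367) and 3.72 ± 0.75 (adjusted p = 0.00498). The SLC5A5 mean of BE, 3.80, lay below the lower quartile of all arrays, so the size of its fold is uncertain, whereas the HE mean, 8.52, lay above the array medians. With progesterone added, HEP animals varied: SLC5A5 was 7.91, 6.96, 4.97 and 5.46, and SLC28A3 was 10.06, 9.33, 7.63 and 7.84. HEP lay below HE by -2.19 ± 0.75 in SLC5A5, with no overlap, but not past the threshold (adjusted p = 0.252).

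Peptide, vitamin and organic ion carriers completed that class. SLC15A1 (PEPT1), which takes up small peptides, was higher with estrogen by 0.90 ± 0.22 (adjusted p = 0.00249) and with haloperidol by 0.76 ± 0.22 (adjusted p = 0.0334). HE animals had 9.04, 8.96, 8.65 and 9.34, against 7.32, 7.82, 7.65 and 6.92 in BE, with no overlap. Its relative SLC15A2 (PEPT2, dim) was higher with estrogen by 0.83 ± 0.21 (adjusted p = 0.00249). The other probe sets of SLC15A2, both dim, gave 1.13 (limma, adjusted p = 0.00155) and 0.22, which was not called (adjusted p = 0.252). SLC5A6, the carrier of biotin and pantothenate, was higher with haloperidol by 0.53 ± 0.13 (adjusted p = 0.00995), and SLC45A3 (dim) by 1.12 ± 0.14 (adjusted p = 4.13e-06). SLC22A3 (OCT3), a carrier of organic cations and monoamines, fell with estrogen by -1.26 ± 0.24 (2.40-fold, adjusted p = 0.00018). HE animals had 6.50, 6.43, 6.21 and 5.83, H animals 8.32, 8.55, 8.68 and 9.02 and BE animals 8.51, 7.45, 7.78 and 9.23, so HE lay below both. SLC2A4RG fell with estrogen by -0.72 ± 0.14 (adjusted p = 0.000324). SLC45A2, a carrier of pigment cells, did not pass in either average and had its highest value, 8.09, in HEP array C.

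SLC46A2, a carrier first described in thymic stroma, had its own pattern. HEP animals had 9.73, 9.96, 9.67 and 9.67, against 8.11, 7.96, 7.97 and 8.33 in HE, 8.00, 7.77, 7.57 and 7.67 in HP and 8.22, 8.52, 8.80 and 8.30 in BEP. The HEP animals overlapped none of these, and 1 B animal, at 9.78, stood as high. HEP exceeded HE by 1.66 ± 0.34 (3.17-fold, adjusted p = 0.0146) and it also exceeded HP, with means of 9.76 ± 0.14 in HEP and 7.75 ± 0.18 in HP (SD, n = 4; limma, adjusted p = 0.000228), but its lead over BEP, 1.30 ± 0.34, did not pass (adjusted p = 0.0561). It was the single SLC gene called higher in HEP against HE, and limma called 0 lower (12 at an unadjusted p under 0.05), beside 0.303% and 0.173% of probe sets. The call was lost without HEP array B, HE array B or HE array C.

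In HE against BE, the comparison of haloperidol with bromocriptine in animals given estrogen, 16 of 109 SLC genes were higher (14.7%) and 5 lower (4.59%). Over all probe sets 5.46% were higher and 5.05% lower, and over all genes 7.78% and 4.12%. All 4 HE animals lay above all 4 BE animals in 15 of the 16, SLC37A1 being the exception, and below them in 4 of the 5 lower genes, SLC25A24 being the exception. Leaving out BP array A, which enters only through the shared variance, gave 18 higher and 8 lower, beside 9.54% and 5.69% of all genes. Against sham, HE had 11 higher SLC genes (10.1%) and 3 lower (2.75%), beside 2% and 1.61% of probe sets and 2.45% and 1.37% of genes. The lower genes were SLC2A5, SLC22A3 and SLC44A4, and without BP array A 7 were lower, beside 3.35% of all genes. The higher count ranged from 6 to 14 when 1 array was left out.

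**Figure D4:**
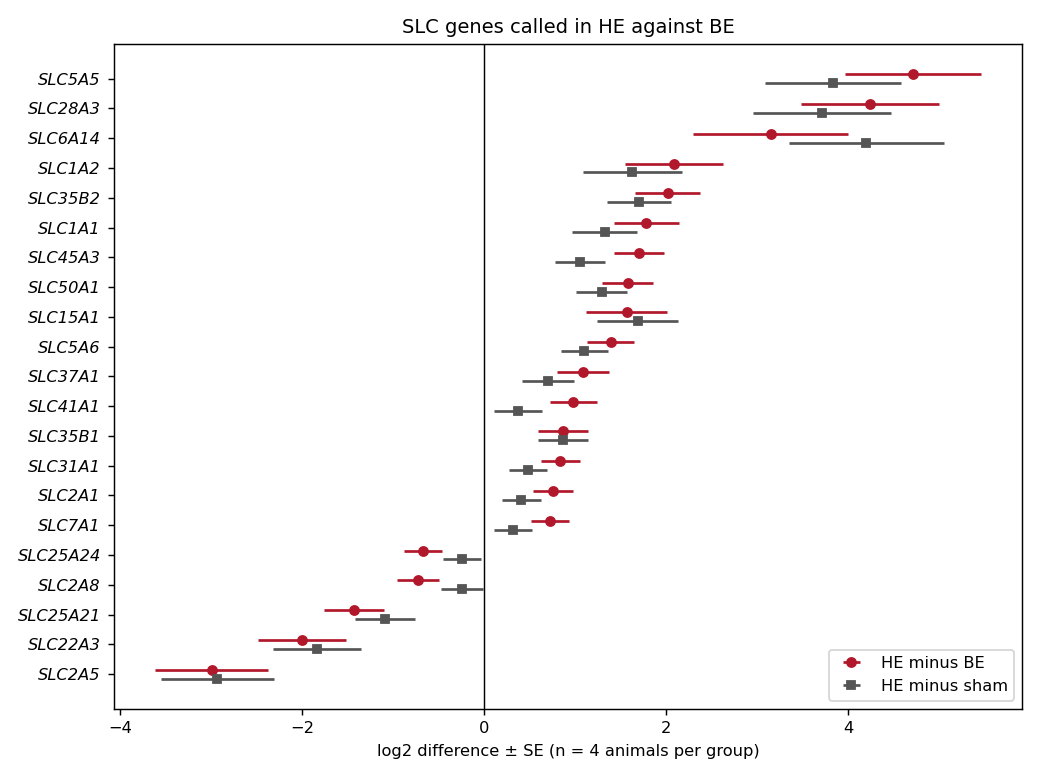
log2 difference (horizontal axis, ± SE from limma) of the 21 SLC genes called in HE against BE, shown for HE minus BE (red circles) and HE minus sham (grey squares), n = 4 animals per group. SLC5A5, SLC28A3 and SLC6A14 lie farthest right and SLC2A5 farthest left in both.

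With all arrays kept, the other drug comparisons called few SLC genes. In H against B limma called 0, with 9 higher and 4 lower at an unadjusted p under 0.05, beside 0.0289% and 0.00481% of probe sets. In HP against BP it called 0, with 0 higher and 1 lower at an unadjusted p under 0.05, beside 0% of probe sets in each direction. In HEP against BEP it called SLC45A3 higher (1.43 ± 0.27, adjusted p = 0.00838) and 0 genes lower (11 at an unadjusted p under 0.05). Over all probe sets the shares were 0.635% and 0.447%. Leaving out BP array A, which enters HEP against BEP only through the shared variance, gave 9 higher and 1 lower. The shares of all genes were then 2.5% and 1.38%. The same fit called 1 SLC gene higher and 0 lower in H against B, and 0 in HP against BP.

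The interaction of estrogen with haloperidol asks whether the estrogen difference was the same under both drugs. It is given as the estrogen difference under haloperidol minus that under bromocriptine. It was called positive in 6 SLC genes (5.5%) and negative in 4 (3.67%), beside 3.87% and 3.62% of probe sets and 5.3% and 3.52% of genes, so the share was close to that of all genes. SLC35B2 (1.81 ± 0.35, adjusted p = 0.00444) and SLC5A5 (2.79 ± 0.75, adjusted p = 0.0227) were positive, and SLC22A3 (-2.03 ± 0.48, adjusted p = 0.0129) and SLC25A21 (-1.24 ± 0.33, adjusted p = 0.0224) negative. These 4 kept their call with each array left out in turn. SLC37A1, SLC50A1, SLC5A6, SLC45A3, SLC25A24 and SLC25A14 lost it without BP array A, among other arrays. The other probe set of SLC25A14, dim, went the other way (0.17, limma, adjusted p = 0.787). Those of SLC25A24 (-0.46, adjusted p = 0.525) and SLC45A3 (0.75, adjusted p = 0.155), both dim, were not called either. Without that array 3 SLC genes were positive and 2 negative, SLC15A1 being called there, beside 3.55% and 2.39% of all genes. SLC28A3 and SLC6A14 did not pass (adjusted p = 0.122 and 0.0659), but the other probe set of SLC6A14, also dim, was called positive (2.38, adjusted p = 0.0327).

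Progesterone gave no called SLC gene on average (limma, 0 higher and 0 lower, with 4 and 2 at an unadjusted p under 0.05), beside 0.077% and 0.0144% of probe sets. Its interaction with estrogen gave 0 as well (4 positive and 15 negative at an unadjusted p under 0.05), beside 0.164% and 0.0866% of probe sets. Its interaction with haloperidol gave 0 (2 and 7 at an unadjusted p under 0.05), beside 0% of probe sets in each direction.

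**Figure D5:**
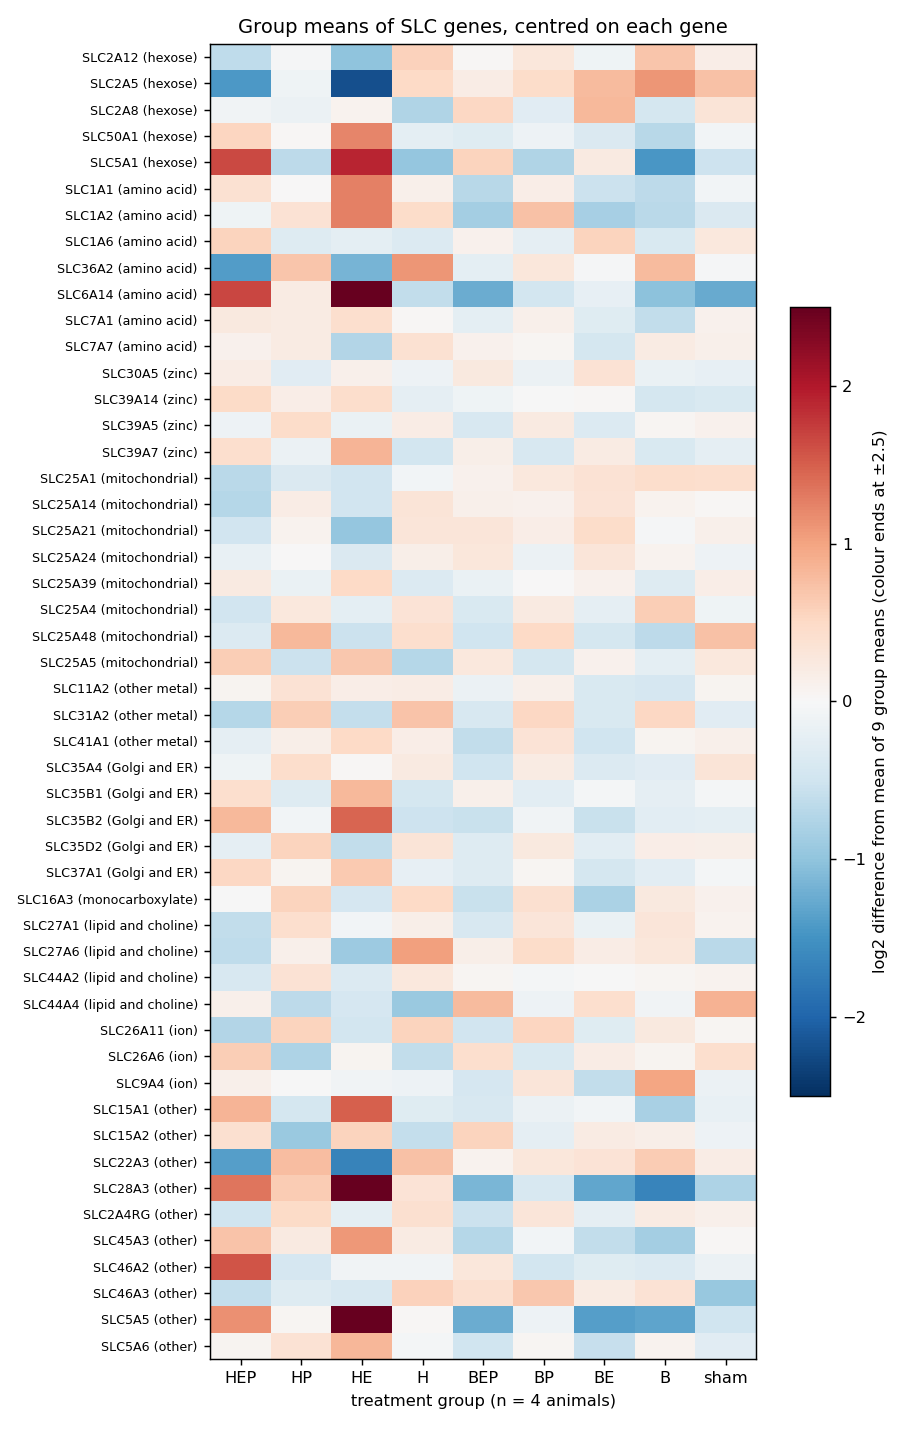
Group means (n = 4 animals, horizontal axis) of the SLC genes named for a called change (vertical axis, with class). Values are log2 differences from the mean of the gene's 9 group means. Genes named only as fixed genes are not shown. Red is higher and blue lower. HE has the deepest red in SLC5A5, SLC28A3 and SLC6A14 and the deepest blue in SLC2A5, and SLC46A2 is red in HEP.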

How the data were processed

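Mammary gland RNA of 36 animals was hybridized as biotin-labelled cRNA to 1 array each. The authors deposited RMA values, per the labels, which were read as log2 from their range (1.552 to 13.74). The RMA version is not given in the sources used here, and no genome coordinates or sequences were used. Groups come from the treatment labels. Symbols come from the platform annotation of 2016, and 107 of the 109 genes had an identifier in the current reference table. Linear models with 1 mean per group (limma 3.58.1, R 4.3.3, 27 residual and 4.16 prior degrees of freedom) were fitted to all 20792 probe sets, two-sided, with Benjamini-Hochberg adjustment per comparison over all of them. Calls required an adjusted p below 0.05, and the model was tested on simulated data. The average of a factor is over the levels of the others. SE values come from the fit.

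Named genes are the 10 with the largest called change in each direction of 7 main comparisons, up to 4 per class for estrogen and haloperidol, and 26 fixed genes, of which 15 were measured under their symbol. SLC genes and lists were chosen with earlier results of these data known. Alternatives were dim probe sets left out, a second quantile normalization, median centring, trend and robust moderation, array weights, the title letter as a block, 1 probe set per gene, the mean of a gene's probe sets, fewer groups, and arrays left out. For comparisons of single groups other than B against sham, these were run after seeing the data. Whether the letters A to D link animals of different groups is not stated in the labels. Same-letter deviations from group means correlated at 0.0373 on average, with 52 of 144 pairs over 0.1, beside a mean of -0.0119 for different letters. Such values cannot show whether the animals were paired. The labels give no batch. Figures used matplotlib 3.10.9 and pandas 2.3.3.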

Additional observations from a re-analysis of the deposited data

Results flagged for a closer look

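Single animals stood apart in 33 of 513 sets of 4 animals (6.43%), over the 57 named genes and 9 groups, where the gap to the nearest other animal took a share of the group's range above Dixon's critical value. Chance gives about 1 in 20, and 22 were high and 11 low. BP array A gave 7: it was high in SLC15A1 (9.837), SLC35B2 (10.6), SLC46A2 (8.027) and SLC6A14 (7.362), and low in SLC25A1 (9.16), SLC2A5 (7.595) and SLC31A2 (8.095). HEP array C gave 6: high in SLC25A1 (10.1), SLC2A4RG (9.105), SLC45A2 (8.091) and SLC7A1 (10.68), and low in SLC25A14 (6.182) and SLC25A24 (9.262).

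Among B animals, array A was high in SLC25A4 (12.22) and SLC25A14 (8.077), array B high in SLC15A2 (7.269) and array C low in SLC2A8 (7.071). Other BP animals were high in SLC1A5 (array C, 9.737) and low in SLC2A8 (array B, 7.045) and SLC9A4 (array B, 4.391). In HE, array B was low in SLC26A6 (6.569), array C low in SLC39A14 (6.87), and array D high in SLC2A8 (8.083) and SLC44A4 (9.166). In HP, array A was high in SLC35B2 (9.834), array B low in SLC44A4 (7.753) and array C high in SLC9A4 (5.918). In BE, array B was high in SLC44A2 (10.57), array C in SLC2A1 (11.29) and array D in SLC11A2 (9.975). The remaining values were H array A in SLC30A5 (9.043), BEP array A in SLC9A4 (5.492) and sham array B in SLC25A1 (10.97), all high.

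The estrogen difference under haloperidol minus that under bromocriptine passed the test (limma, adjusted p under 0.05) in 10 genes. It was positive in SLC5A5 (2.788), SLC35B2 (1.809), SLC37A1 (0.9297), SLC50A1 (0.9129), SLC5A6 (0.8989) and SLC45A3 (0.893). It was negative in SLC22A3 (-2.028), SLC25A21 (-1.24), SLC25A14 (-0.9857) and SLC25A24 (-0.6722).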

How the results depend on the processing

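Of 106 single-gene calls, 86 kept direction and call under all alternatives other than single arrays left out, 68 with each array left out, and 67 under all. The single reversal was SLC44A2 with estrogen, 0.0868 on the mean of its probe sets. Counts of calls moved by over 1.5 times as follows, and the cause was not tested. B against sham gave 0 higher and 2 lower without dim probe sets, 3 lower after a second quantile normalization, 2 lower after median centring, 2 lower with a random replicate block and 2 lower with 1 probe set per gene. It gave 0 in each direction on the smaller set of groups, and 2 higher and 0 lower without B array A and BP array A. Array weights gave 2 higher and 10 lower in B against sham, 10 lower with haloperidol, 13 positive for estrogen by haloperidol and 1 positive for estrogen by progesterone. They gave 13 lower in HE against BE, 12 lower in HE against sham, 12 higher and 21 lower in HEP against HP, 2 lower in HEP against HE, and 2 higher and 2 lower in BE against B. Without B array A and BP array A, 8 were lower with haloperidol, 2 negative for estrogen by haloperidol, 1 positive for estrogen by progesterone, 10 lower in HE against BE and 8 lower in HE against sham. The mean of probe sets gave 2 negative for estrogen by haloperidol, 7 lower in HEP against HP and 3 lower in BE against B. BE against B had 0 lower without dim probe sets and 2 higher and 0 lower on the smaller set of groups, and HE against sham 5 lower there.

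With the replicate block (title letter as a fixed term), estrogen gave 23 higher and 27 lower, haloperidol 14 and 5, and HE against BE 16 and 6. BE against B gave 2 lower, and SLC2A8 with haloperidol lost its call. What the letters stand for is not stated in the labels, and 14 of 36 arrays were nearest their own letter. With 1 array left out at a time, counts ran from 0 to 2 higher and 0 to 5 lower in B against sham, 3 to 10 lower with haloperidol, 0 to 1 higher with progesterone, 2 to 11 positive and 2 to 7 negative for estrogen by haloperidol, and 0 to 1 positive for estrogen by progesterone. They ran from 3 to 8 lower in HE against BE, 7 to 15 lower in HE against H, 6 to 14 higher and 2 to 7 lower in HE against sham, 3 to 9 higher and 4 to 13 lower in HEP against HP, 0 to 1 higher in HEP against HE, and 1 to 2 higher and 0 to 2 lower in BE against B. Detection calls were not used, so differences that rest on dim probe sets are uncertain in size.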
